A study of Oryctolagus cuniculus with 4 samples.

Results

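The platelet-derived growth factor (PDGF) family was followed in rabbit ear hypertrophic scar (HS). The 7 genes were chosen by family name: the ligands PDGFA, PDGFB, PDGFC and PDGFD, the receptors PDGFRA and PDGFRB, and the receptor-like gene PDGFRL. The family was selected on the expression difference of PDGFD between these same 4 libraries, so the difference between groups is described for the members and was not tested. Of the 7, 5 were found by symbol among the 13913 genes of the expression table, and all 5 were among the 9348 genes kept for the fit. Only 10207 of the 13913 carried a symbol, so a gene not found may be there without one. PDGFA and PDGFRA were not analysed here, so receptor alpha is missing from every statement that follows.

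The single-cell libraries came from dissociated ventral epidermis and dermis of rabbit ear scars, 1 scar tissue per library, with genotype WT in all. The HS group was 2 libraries from scars that got no treatment. The drug-loaded MNs group was 2 libraries from scars that got drug-loaded microneedles (MNs), polymer needles whose tips carried the drug, once in each of 3 weeks. The study used female rabbits, other ones for each group, and harvested 1 week after the last patch. It calls the 2 samples of a group biologically independent, while the labels do not tie a library to an animal and each rabbit carried several scars, so the spread may be that between scars of an animal. No library had needles without drug, and the effects of needle insertion and of drug cannot be told apart.

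PDGFs are dimeric growth factors for mesenchymal cells such as fibroblasts and the mural cells (pericytes and smooth muscle) of blood vessels. They act through receptor tyrosine kinases, which signal to the RAS-MAP kinase, PI3 kinase and STAT pathways. PDGF-A and PDGF-B are cut inside the cell by furin-like proteases, whereas PDGF-C and PDGF-D leave the cell with a CUB domain that has to be removed outside it. In skin, endothelial PDGF-B draws in mural cells that carry receptor beta, and PDGF signalling drives fibroblast growth in wounds and scars.

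Each value is 1 average per gene and library over its filtered cells, formed by the authors, in parts per 1000000 of the library total, here called units. Fewer cells of a type and less RNA per cell cannot be told apart in such values. The depth behind them is unknown, because every column had been scaled to 1 total. Along the first principal component of all tested genes, which held 43.0% of the variance, HS replicate 1 stood apart at 37.2, against -0.947 for HS replicate 2 and -18.3 and -17.9 for drug-loaded MNs replicates 1 and 2. Log2 fold changes are drug-loaded MNs over HS on the log2(value + 1) scale from limma, and the median over all 9348 genes was 0.12.

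Among the ligands, PDGFD was higher in drug-loaded MNs while PDGFB and PDGFC overlapped between groups. PDGFD (ENSOCUG00000015312), which acts mainly through receptor beta, stood at 9.53 and 10.9 units in HS and at 48.6 and 34.8 units in drug-loaded MNs. Both drug-loaded MNs libraries lay above both HS libraries, and the lower of them was 3.20 times the higher HS library. The HS libraries differed from each other by 1.14-fold and the drug-loaded MNs libraries by 1.39-fold. Group means were 10.2 ± 0.964 and 41.7 ± 9.71 units (SD, n = 2 each), a ratio of 4.08. Its log2 fold change was 1.91 (SE 0.27), or 1.79 above the median of all genes, and 20 of the 9348 genes (0.214%) had a larger one. PDGFD was selected for its difference in these libraries, so nothing is read from this rank.

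PDGFC (ENSOCUG00000017242), the other ligand with a CUB domain and a ligand of receptor alpha, stood at 33.9 and 19.0 units in HS and at 27.4 and 22.4 units in drug-loaded MNs. Its HS libraries were the highest and the lowest of the 4, with the drug-loaded MNs libraries between them. The log2 fold change was -0.04 (SE 0.32), and it was 0.37 without HS replicate 1, 0.10 without drug-loaded MNs replicate 2 and -0.44 without HS replicate 2.

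PDGFB (ENSOCUG00000027603), the ligand of both receptors, had 14.4 and 9.54 units in HS and 10.3 and 5.21 units in drug-loaded MNs. The groups overlapped, since drug-loaded MNs replicate 1 lay above HS replicate 2. Means were 12.0 ± 3.46 and 7.75 ± 3.59 units (SD, n = 2 each). The fitted log2 difference was -0.61 (SE 0.37). Its size rested on single libraries, running from -1.04 without drug-loaded MNs replicate 1 to -0.18 without drug-loaded MNs replicate 2.

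The beta receptor gene and the receptor-like gene were both higher in drug-loaded MNs. PDGFRB (ENSOCUG00000001725), the beta receptor of mural cells and fibroblasts, stood at 67.3 and 59.8 units in HS and at 103 and 90.4 units in drug-loaded MNs. The groups did not overlap, with the lowest drug-loaded MNs library 1.34 times the highest HS library. The log2 fold change was 0.60 (SE 0.22), and 11.4% of tested genes had a larger one.

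PDGFRL (ENSOCUG00000005211) encodes a protein that resembles the ligand-binding part of the receptors and has no kinase domain. It stood at 193 and 166 units in HS and at 369.9 and 335 units in drug-loaded MNs, again with no overlap. Means were 179.8 ± 19.3 and 352 ± 24.8 units (SD, n = 2 each), and the fitted log2 difference was 0.97 (SE 0.22). A larger value was found for 3.02% of tested genes.

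**Figure D1:**
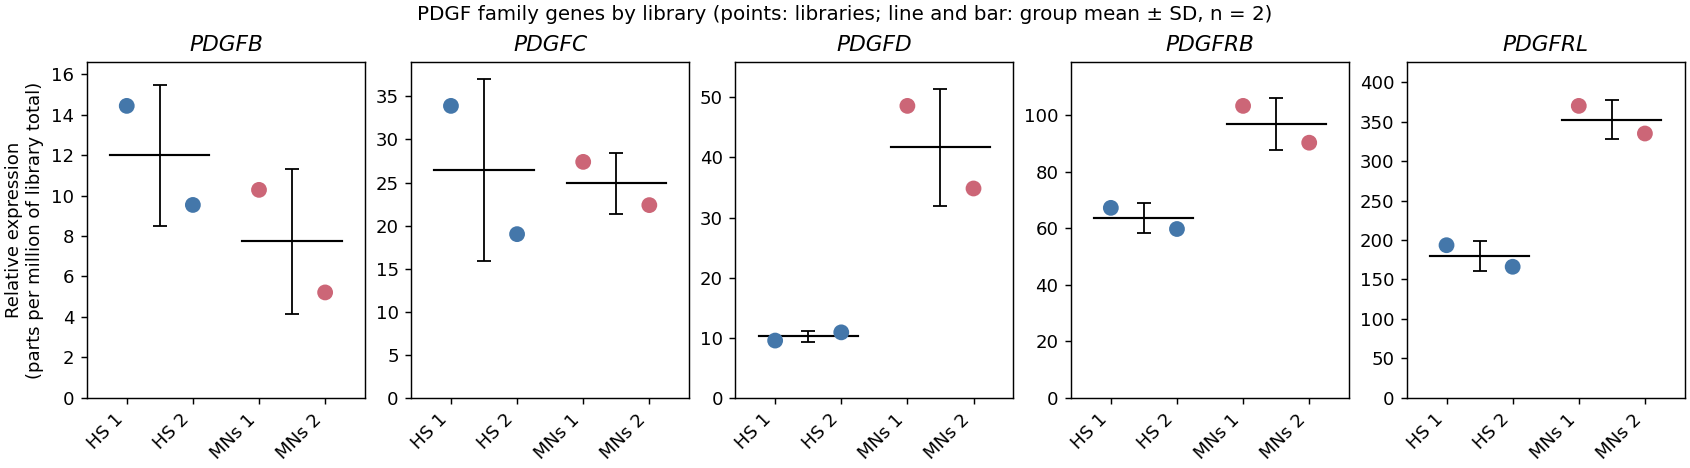
Relative expression in parts per 1000000 of the library total (vertical axes from 0, a scale of its own per gene) for the 5 PDGF family genes in each library (HS blue, drug-loaded MNs red), with group mean and SD over n = 2. The groups are apart for PDGFD, PDGFRB and PDGFRL and overlap for PDGFB and PDGFC.

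Both drug-loaded MNs libraries thus lay above both HS libraries in 3 of the 5 members, a pattern that 26.6% of all tested genes showed, and below them in 0, against 11.2% of all tested genes. Because the contrast was used to select the family, nothing is read from these counts or from the members' places among all genes. The median log2 fold change of the 5 members was 0.60, and PDGFD lay 1.63 above the median of the other 4.

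Ratios between members within a library do not depend on how the library was scaled. The log2 ratio of PDGFD to PDGFC was -1.83 and -0.80 in the HS libraries, against 0.83 and 0.64 after drug-loaded MNs. That of PDGFD to PDGFB was -0.60 and 0.19 in untreated HS, against 2.24 and 2.74 after it. These ratios differed between groups by 2.05 (pooled SD 0.52) and 2.69 (pooled SD 0.47) on the log2 scale. Both hold PDGFD, selected for its difference in these libraries, so nothing about the ligand mix is read from them. Gene length may enter the ratio itself but not its difference between libraries.

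Against its receptor, the log2 ratio of PDGFD to PDGFRB went from -2.82 and -2.46 in HS to -1.09 and -1.38 in drug-loaded MNs. The ratio of PDGFB to PDGFRB lay the other way, at -2.22 and -2.65 in HS, against -3.33 and -4.12 after treatment. The 2 beta receptor ligands that were measured thus stood in opposite directions relative to PDGFRB, with no overlap in either ratio. PDGFRB was itself higher in drug-loaded MNs, PDGFB alone overlapped between groups, and PDGFD was the selected gene. The log2 ratio of PDGFC to PDGFRB differed by -0.64 (pooled SD 0.34), also lower without overlap. Nothing about the beta receptor ligands is therefore read from this contrast. The log2 ratio of PDGFRL to PDGFRB varied little within groups, at 1.52 and 1.47 in HS, against 1.84 and 1.89 after treatment. The difference was 0.37 (pooled SD 0.035).

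The markers of some cell types were higher in drug-loaded MNs, as PDGFD, PDGFRB and PDGFRL were. All 7 fibroblast markers measured, of 9 listed, were higher in drug-loaded MNs without overlap, with log2 fold changes from 0.58 (LUM) to 1.46 (COL3A1). None passed an adjusted p of 0.05 in limma, and all 7 had an unadjusted p under it. Over all tested genes, 26.6% were higher without overlap and 8.65% had such a p. Their summed level was 23029 and 22559 units in HS and 44754 and 48717 units in drug-loaded MNs. The PDGFD value of 1.91 was larger than that of each of the 7, but PDGFD was selected for its difference in these libraries. Relative to this sum, PDGFD was still apart between groups, with a log2 difference of 0.98 (pooled SD 0.32).

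The other members took another place relative to the fibroblast sum. PDGFRL differed by -0.06 (pooled SD 0.16), with overlapping groups, and PDGFRB by -0.43 (pooled SD 0.17), now lower in drug-loaded MNs without overlap. PDGFC differed by -1.07 and PDGFB by -1.72, both lower without overlap. The sum is mostly COL1A2 and COL3A1, collagen genes that were themselves higher in drug-loaded MNs, so this ratio is not a count of fibroblasts. The part of cell makeup in the members' differences was not tested.

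Mural markers were higher too, in all 6 measured of 11 listed, as 6043 of the 9348 tested genes were. Of the 6, 2 were without overlap, against 26.6% of all tested genes. Their summed level was 333 and 683 units in HS and 815 and 636 units in drug-loaded MNs, so HS replicate 1 stood low and HS replicate 2 lay between the drug-loaded MNs libraries. Relative to this sum PDGFRB differed by 0.01 (pooled SD 0.61), with overlapping groups, and PDGFD by 1.42 (pooled SD 0.43), without overlap.

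**Figure D2:**
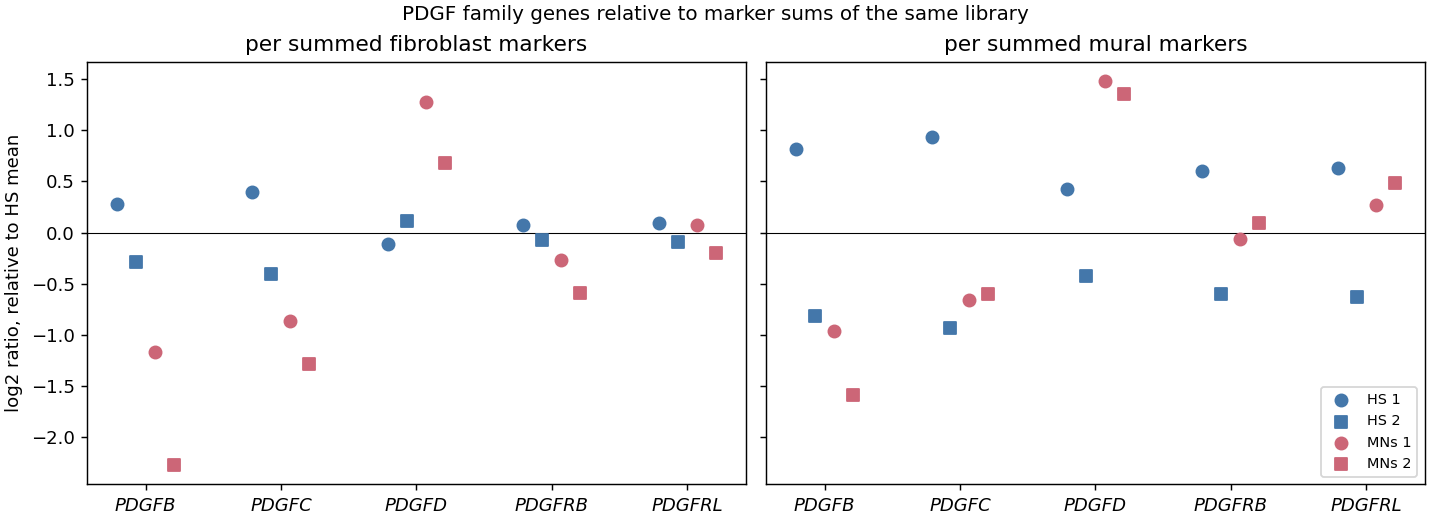
Log2 ratio of each PDGF family gene to the summed fibroblast markers (left) and the summed mural markers (right) of the same library, set to 0 at the HS mean (HS blue, drug-loaded MNs red, circles replicate 1, squares replicate 2). PDGFD lies above both HS libraries in both panels, while PDGFRL per fibroblast sum and PDGFRB per mural sum overlap between groups.

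Endothelial markers, from the cells that make PDGF-B, had no common direction, with 3 of 6 higher, 3 lower and a median log2 fold change of 0.04. VWF, which made up most of their sum, was at -0.50, while PECAM1 was at 0.54 and CDH5 at 0.92. Their summed level was 195 and 194 units in HS and 143 and 196 units in drug-loaded MNs. PDGFB relative to this sum differed by -0.46 (pooled SD 0.78), with overlap. Of the platelet and megakaryocyte markers, 3 of 6 were measured. GP9 and GP1BA, which encode parts of the platelet von Willebrand factor receptor, were each listed at 0 in a library and stayed below 1 unit in the others, and ITGA2B had a log2 fold change of -0.05.

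Lymphatic endothelial markers were higher in drug-loaded MNs in all 5 measured, of 6 listed, without overlap (26.6% of all tested genes). Their sum, most of it CCL21, was 74.9 and 67.3 units in HS and 266 and 157 units in drug-loaded MNs. Relative to that sum PDGFD differed by 0.49 (pooled SD 0.22), without overlap. All 9 macrophage markers measured, of 11 listed, were higher without overlap (26.6% of all tested genes). They summed to 134 and 142 units in HS and 318 and 311 units in drug-loaded MNs. Relative to them PDGFD differed by 0.82 (pooled SD 0.23). Relative to the endothelial sum it differed by 2.23 (pooled SD 0.48). PDGFD was chosen for its difference in these libraries, so nothing about cell makeup is read from these ratios.

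Keratinocyte markers overlapped between groups. Summed basal keratinocyte markers ran from 6282 to 8734 units in HS and from 4525 to 8431 in drug-loaded MNs, and suprabasal ones from 36817 to 52315 and from 31363 to 41238 units. Schwann (94.2 to 432 against 161 to 299 units), mast (36.5 to 101 against 58.2 to 101), chondrocyte (104 to 558 against 204 to 327) and cycling (161 to 286 against 169.6 to 386) sums overlapped as well. For T cells 1 of 6 markers was measured, at 0.559 and 1.24 units in HS and at 3.73 and 2.31 units in drug-loaded MNs.

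The genes whose profile over the 4 libraries was most like that of a member were found among 5513 named genes by the root mean square difference of centred log2 values. For PDGFD the closest was MMRN1, a lymphatic endothelial and platelet gene, at a difference of 0.046. It had 5.04 and 5.78 units in HS and 28.5 and 18.5 units in drug-loaded MNs, almost the steps of PDGFD. NDRG1 (0.19), PRR16 (0.25) and the mitochondrially encoded CYTB (0.25) followed. For PDGFRB the closest were ZBTB20 (0.0091), LMAN1 (0.016) and SGCD (0.019), all higher in drug-loaded MNs by 0.56 to 0.62 on the log2 scale. With 4 libraries such likeness is a description only.

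Other genes of the PDGF pathway, and related growth factors and kinases, were taken by role and are together called pathway genes. None was a member. The lists were chosen with earlier results of these data known, so their shares are descriptions only. CSF1R and KIT, among the related genes, are also in the macrophage and mast marker lists. Of 84 listed, 61 were in the table and 59 were tested, 35 with a positive and 24 with a negative log2 fold change. Over all 9348 tested genes, 6043 were positive and 3305 negative. In limma 0 of the 59 passed an adjusted p of 0.05, against 0.0428% of all tested genes, and 9 had an unadjusted p under 0.05, 6 higher and 3 lower. These 9 were 15.3% of the 59, against 8.65% of all tested genes. Both drug-loaded MNs libraries lay above both HS libraries in 25.4% of the 59 and below them in 23.7%, against 26.6% and 11.2% of all genes.

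The proteases that release active ligands differed in direction. ST14, or matriptase, which can free PDGF-D from its CUB domain, stood at 18.6 and 21.4 units in HS and at 11.6 and 13.2 units in drug-loaded MNs. Its groups did not overlap, but its log2 fold change of -0.65 had a limma adjusted p of 0.527. PLAU, the urokinase that also activates PDGF-D, had 180 and 242 units in HS and 185 and 149 units in drug-loaded MNs, with overlap. Its log2 fold change was -0.33 (limma adjusted p 0.796). The gene PCSK5, a furin-like convertase, stood at 2.47 and 4.29 units in HS and at 11.1 and 12.8 units in drug-loaded MNs. Its log2 fold change of 1.59 did not pass either (limma adjusted p 0.270). That of PLAU was -0.12 without HS replicate 2, -0.17 without drug-loaded MNs replicate 2 and -0.54 without HS replicate 1. Of the 5 proteases tested, 1 had a positive log2 fold change, against 6043 of the 9348 tested genes.

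SPARC, a matrix protein that binds PDGF-B, was the ligand binder that could be tested. It stood at 357 and 623 units in HS and at 1035 and 1292 units in drug-loaded MNs. The log2 fold change was 1.29 (limma adjusted p 0.314), and it was 0.89 without HS replicate 1 and 1.69 without HS replicate 2. A2M, a plasma inhibitor that binds PDGF, was listed at 0 in HS replicate 2 and at 3.25 units in HS replicate 1.

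Of the signal transducers, 18 of 27 were higher, against 6043 of the 9348 tested genes. Their median log2 fold change was 0.19, against 0.12 over all tested genes. Without overlap 5 of the 27 were higher (18.5%, against 26.6% of all tested genes) and 7 lower (25.9%, against 11.2%). FYN, a SRC family kinase that docks on active receptors, had 21.0 and 19.2 units in HS, against 35.5 and 31.4 units after treatment. Its log2 fold change was 0.71 (limma adjusted p 0.437). PIK3R1, the regulatory subunit of PI3 kinase, stood at 113 and 161 units in HS and 230 and 195 units in drug-loaded MNs, with a fitted log2 difference of 0.64 (limma adjusted p 0.519). STAT5B was at 0.52 (limma adjusted p 0.672). The groups did not overlap in these 3 genes, and the kinase MAP2K1 lay near 0, at -0.06. Without HS replicate 1, PIK3R1 was at 0.39 and STAT5B at 0.33. The list's median was -0.05 without HS replicate 1 and 0.44 without HS replicate 2.

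Negative regulators had a median of 0.21, with 7 of 11 higher, against 6043 of the 9348 tested genes. ERRFI1, which restrains receptor kinases and is induced by growth factors, was lower in drug-loaded MNs at 143 and 166 units against 187 and 258 in HS, with a fitted log2 difference of -0.51 (limma adjusted p 0.648). PTPRJ, a phosphatase that acts on PDGF receptors, was at 0.61 (limma adjusted p 0.712), and CBLB, a ubiquitin ligase, was at 0.53 (limma adjusted p 0.6996). None of these was a change past the test. ERRFI1 was at -0.28 without HS replicate 2, PTPRJ at 0.25 without HS replicate 1 and 0.98 without HS replicate 2, and CBLB at 0.28 without drug-loaded MNs replicate 1. The list's median was -0.09 without drug-loaded MNs replicate 1.

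The early transcription targets are genes induced within minutes to hours of growth factor signalling. All 6 measured, of 8 listed, had a negative log2 fold change, against 3305 of the 9348 tested genes. In 3 of the 6 the groups did not overlap, while 11.2% of all tested genes were lower without overlap. Their median log2 fold change was -0.38, and it ran from -0.66 to -0.20 with 1 library left out. FOSL1, an AP-1 subunit, stood at 71.8 and 55.4 units in HS and at 22.8 and 42.8 units in drug-loaded MNs, a fitted log2 difference of -0.99 (limma adjusted p 0.431). MYC had 389 and 477 units in HS and 255 and 306 units in drug-loaded MNs, a fitted log2 difference of -0.62 (limma adjusted p 0.485). JUN was at -0.46 with overlapping groups (limma adjusted p 0.772). The groups also overlapped for FOS at -0.18 (limma adjusted p 0.911) and EGR1 at -0.09 (limma adjusted p 0.968). FOSL1 was at -0.55 without drug-loaded MNs replicate 1 and at -1.43 without drug-loaded MNs replicate 2. JUN was at -0.14 when HS replicate 2 and at -0.78 when HS replicate 1 was left out. None passed the test, and whether PDGF signalling had a part in these values was not tested.

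Of the related growth factors and kinases, 8 of 9 were higher, against 6043 of the 9348 tested genes, with a median of 0.56. CSF1R and KIT belong to the same receptor class as the PDGF receptors and mark macrophages and mast cells. The other mast markers measured overlapped between groups, HDC at -0.49 and MS4A2 at 0.31. The log2 fold change was 0.82 for CSF1R (limma adjusted p 0.359) and 0.77 for KIT (limma adjusted p 0.447), both without overlap. KITLG, the ligand of KIT, had 34.1 and 45.3 units in HS, against 70.8 and 48.4 units after treatment, a fitted log2 difference of 0.56 (limma adjusted p 0.675), and was at 0.29 without drug-loaded MNs replicate 1 and 0.36 without HS replicate 1. The list's median was 0.16 without HS replicate 1. VEGFC and VEGFD, growth factors of the same fold as the PDGFs, were at 0.60 and 0.14, each with an adjusted p in limma above 0.7.

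**Figure D3:**
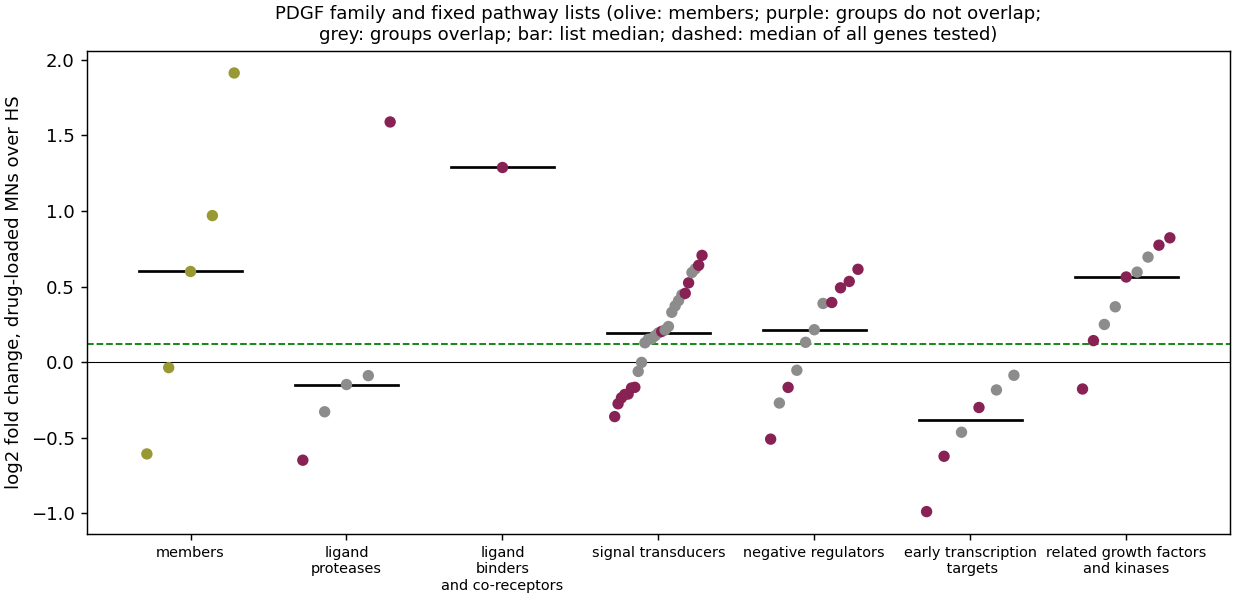
Log2 fold change, drug-loaded MNs over HS, of the 5 PDGF family genes and of each tested gene of the 6 pathway lists, 1 point per gene, with the list median as a bar and the median of all genes (0.12) dashed. PDGFD, selected for its difference in these libraries, lies at 1.91, above every pathway gene shown, so nothing is read from its place. All 6 early transcription targets lie below 0.

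Across 14 other settings of scaling, filter, pseudocount, variance model, block and left-out library, PDGFD, PDGFRB and PDGFRL were higher and PDGFB lower each time. Scaling to marker sums is not among these settings. PDGFRB and PDGFRL were at -0.43 and -0.06 per summed fibroblast markers, and at 0.01 and 0.38 per summed mural markers. Every setting used the libraries on which the family was selected, so nothing is read from the kept signs. PDGFC changed sign when HS replicate 1 or drug-loaded MNs replicate 2 was left out. Under median ratio scaling, where the median of all genes was -0.01, the log2 fold changes were 1.78 for PDGFD, 0.46 for PDGFRB, 0.83 for PDGFRL, -0.18 for PDGFC and -0.74 for PDGFB. PDGFD minus the median of the other members was lowest without HS replicate 1, at 1.30, and highest at 1.96 when HS replicate 2 was left out.

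**Figure D4:**
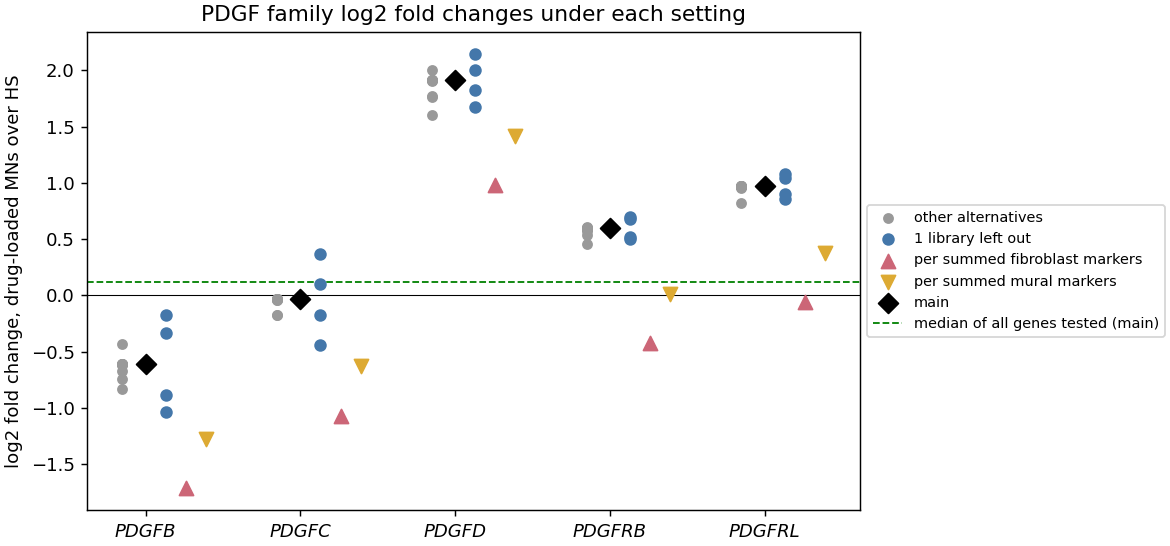
Log2 fold change, drug-loaded MNs over HS, of the 5 PDGF family genes under the main setting (black), with 1 library left out (blue), under the other settings (grey) and per summed fibroblast (red) or mural (yellow) markers without a pseudocount. PDGFD stays between 0.98 and 2.15, while PDGFRB and PDGFRL drop to -0.43 and -0.06 per fibroblast sum.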

How the data were processed

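Single-cell RNA was measured by the 10x Genomics 3' method in 2 HS and 2 drug-loaded MNs libraries. Per the labels, Cell Ranger 2.1.1 was used, and the processing notes name mm10, a mouse build, although the gene identifiers are rabbit Ensembl ones. The deposited values are a signal of relative expression per gene and library, averaged by the authors over filtered cells in a way that is not stated. The table is named for FPKM, but each column sums to 10000. The methods also mention a correction between samples, and whether these values passed it is not stated. How doublets were treated is not given in the sources used here, and no single cells were used here. Low values were no whole multiples of a step (18.6% to 21.7% within 0.1), so depth is unknown and no count model was used.

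Values were rescaled to 1000000 per library, and genes with a mean of at least 1 were kept. Log2(value + 1) was fitted with limma 3.58.1 (lmFit, eBayes with trend, no covariate) under R 4.3.3. P-values are two-sided, Benjamini-Hochberg adjusted over 9348 genes, threshold 0.05. An exact permutation test of 2 against 2 cannot reach 0.05, so none was run for single values. Marker ratios are log2 ratios within a library without pseudocount, and ratios and their pooled SD (n = 2 each) were not tested. Overlap compares the 2 and 2 library values.

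Members, pathway lists and marker lists were chosen with earlier results of these data known. Named were all members, the 3 pathway genes of smallest unadjusted p per list, and marker counts and sums. The 4 genes of closest profile to PDGFD and PDGFRB were taken among those with a mean of at least 10 units. MAP2K1, A2M, FOS, EGR1, VEGFC, VEGFD, ITGA2B, VWF, PECAM1, CDH5, CCL21, HDC, MS4A2 and the fibroblast genes were named after their values were seen. Of the profiles close to PDGFRB, 1 is not reported here. Symbols came from the table.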

Additional observations from a re-analysis of the deposited data

How the results depend on the processing

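The genes past the threshold (4) were 0 under median ratio scaling, quantile normalization, the total without abundant genes, a pseudocount of 5 and no filter, and 1 with eBayes without trend. Leaving out 1 library gave 0 (HS replicate 1) to 75 (drug-loaded MNs replicate 2), with 48 without drug-loaded MNs replicate 1, and the lone library of a group is then assumed to vary like the other group. The cause was not tested. A replicate block on the library number gave 241 genes, 2 of them pathway genes (PCSK5 and SPARC). The deviations of same-numbered libraries correlated at 0.22 over genes, a hint from the data only. The labels give the numbers no meaning, the groups were different rabbits, and 2 pairs cannot establish a pairing, so the numbers were not taken as one. No pathway gene passed in the other 13 alternatives.

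Scaling to marker sums was chosen after seeing the data. The median of the members (0.60) was -0.43 per summed fibroblast markers, by construction, since those markers were higher in drug-loaded MNs. Per summed mural markers it was 0.014, but the mural sums overlapped between groups and HS replicate 1 stood low. Without such scaling and with 1 library left out, the median of the members ran from 0.50 to 0.70. PDGFD minus the median of the other members kept its sign in all 15 alternatives. The family was selected on the PDGFD difference in these same libraries, so nothing is read from that. The sensitivity of low genes to depth could not be measured, and PDGFB and PDGFC, at 5.21 to 33.9 units, differed up to 1.97-fold between libraries of 1 group.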
